A study of Homo sapiens with 12 samples.

Results

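The RNAs of 10 genes of the SR family of splicing factors were followed in HCT116 cells, a human colorectal carcinoma line, depleted of the RNA-binding protein hnRNP U. The genes are SRSF1, SRSF2, SRSF3, SRSF5, SRSF6, SRSF7, SRSF10, SRSF11, TRA2A and TRA2B. They were chosen by name, as SR and SR-like genes whose products can regulate their own mRNAs, and matched to the table of counts through the Ensembl identifiers of GENCODE. All 10 were found among the 62703 genes of the table, and all 10 were among the 15920 genes that passed the filter on low counts. Cells treated with hnRNP U siRNA gave 3 libraries of heavy polysomal (HP) RNA and 3 of total RNA, and cells treated with control siRNA gave 3 of each, 12 in all. Both siRNAs were used at 2 nM for 48 h in the same cell line, and which of the hnRNP U siRNA sequences the study lists was used for the libraries is not given in the sources used here. HP RNA is the RNA that sediments with many ribosomes on a sucrose gradient. The study measured translational efficiency by the ratio of HP to total RNA or by the distribution of an mRNA over the gradient. The libraries come from 3 experiments, which the titles name by a shared prefix, with 1 library of each condition in each.

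SR proteins carry RNA recognition motifs and a tail rich in arginine-serine dipeptides. They bind exonic enhancers, help to define exons for the spliceosome, and several of them shuttle to the cytoplasm and act in mRNA export and translation. Their tails are phosphorylated by the SRPK and CLK kinases. Many SR genes hold a poison exon, often ultraconserved, with a stop codon inside the reading frame. When the protein is abundant it promotes inclusion of that exon, and the transcript is then removed by nonsense-mediated decay (NMD), which lowers the level of the protein. hnRNP U, also called SAF-A, is an abundant nuclear RNA-binding protein of chromatin and splicing.

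In the GENCODE 44 annotation of hg38, all 10 genes had at least 1 transcript of the NMD class, against 47.0% of the 12758 protein-coding genes tested. For 6 genes an exon of such a transcript lay inside the coding span of the canonical transcript and carried the annotated stop codon, against 20.7% of those protein-coding genes. The genes were chosen for such exons, so these shares are a description. One exon of each of the 6 genes is shown, the longest where a gene had several, because it has the form of a poison exon. Each was read from hg38 along the strand of the gene, from the first base of the exon to the stop codon, which is in capitals.
SRSF3, chr6:36599821-36599854, plus strand: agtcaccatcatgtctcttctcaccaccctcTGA
SRSF6, chr20:43459153-43459304, plus strand: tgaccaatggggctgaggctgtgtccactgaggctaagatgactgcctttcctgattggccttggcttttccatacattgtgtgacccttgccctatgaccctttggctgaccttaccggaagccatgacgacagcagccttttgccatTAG
SRSF7, chr2:38749319-38749346, minus strand: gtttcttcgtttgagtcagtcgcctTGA
SRSF11, chr1:70231859-70231908, plus strand: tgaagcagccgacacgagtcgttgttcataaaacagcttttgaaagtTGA
TRA2A, chr7:23522289-23522432, minus strand: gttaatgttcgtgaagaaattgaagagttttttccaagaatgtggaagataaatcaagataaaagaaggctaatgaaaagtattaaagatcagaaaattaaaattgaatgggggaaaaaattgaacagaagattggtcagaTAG
TRA2B, chr3:185931772-185931852, minus strand: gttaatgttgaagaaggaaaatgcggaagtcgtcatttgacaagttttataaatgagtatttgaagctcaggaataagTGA

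All 6 exons are preceded by AG and followed by GT, the dinucleotides of introns. The exons run on past the stop codon, to whole lengths of 456 bases in SRSF3, 268 in SRSF6, 449 in SRSF7, 117 in SRSF11, 301 in TRA2A and 276 in TRA2B. The other 4 genes (SRSF1, SRSF2, SRSF5 and SRSF10) had NMD transcripts with no exon that met both conditions. The deposited counts are per gene, so transcripts with and without these exons are summed in every value given here.

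HNRNPU itself was measured first as a check of the labels. Levels of a gene are given as CPM, its counts per 1000000 counts of the library after scaling by edgeR's TMM factors for library composition. HNRNPU had 82.4, 75.2 and 77.1 CPM in HP RNA with hnRNP U siRNA, against 1022, 1145 and 1074 CPM with control siRNA. Its total RNA was at 168, 149 and 160.4 CPM with hnRNP U siRNA, against 992, 1106 and 986 CPM with control siRNA. The 12 libraries held between 30305012 and 39761103 counts. Of 6 epithelial markers 5 were above 1 CPM, and the leukocyte and endothelial marker sums were at most 0.121 CPM. Of 3 fibroblast markers 1 was above 1 CPM and DCN was at 0.

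Levels of different genes were compared per kilobase of merged exons (RPKM, the CPM divided by that length). With hnRNP U siRNA SRSF2, which binds exonic enhancers and marks nuclear speckles, was highest in total RNA at 90.4 ± 1.13 RPKM, against 121 ± 2.06 RPKM with control siRNA (SD, n = 3 each). With control siRNA it was followed by SRSF3 at 58.9, SRSF6 at 54.8, SRSF7 at 38.1, SRSF1 at 27.0, TRA2A at 26.0, SRSF5 at 23.2, SRSF11 at 17.7, TRA2B at 17.1 and SRSF10 at 15.6 RPKM. SRSF1 and TRA2A overlapped between libraries, as did SRSF11 and TRA2B, and the other neighbours in this order did not. With hnRNP U siRNA the order in total RNA was the same but for TRA2A, at 28.8 ± 1.73 RPKM, which lay above SRSF1, at 23.9 ± 1.91 RPKM. The order depends on the length used. With the canonical transcript SRSF5 moved up to rank 3 and SRSF1 down to rank 9 in total RNA with control siRNA. Merged exons also include bases shared with other gene models, such as 1890 of 5781 in SRSF1, 654 of 4894 in SRSF6 and 823 of 2976 in SRSF2. Whether reads over shared bases were left out, which would lower these levels, was not tested.

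The effect of hnRNP U siRNA was tested in each fraction. In HP RNA 7 of the 10 genes fell, 1 rose (TRA2A) and 2 (SRSF3 and SRSF7) did not pass an adjusted p of 0.05 from edgeR's quasi-likelihood test with Benjamini-Hochberg adjustment over all genes. Over all genes tested 26.3% fell and 25.5% rose in HP RNA. The median log2 fold change in HP RNA was −0.20 for the 10 genes and 0.0067 for all genes. In total RNA 8 of the 10 fell, TRA2A rose and SRSF7 did not pass the test, where 29.3% of all genes fell and 28.0% rose. The median in total RNA was −0.19 for the 10 genes and 0.00047 for all genes. The libraries hold bulk RNA, so fewer cells with an RNA and less RNA per cell cannot be told apart.

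The changes were small, between 0.744 and 1.17 fold in HP RNA and between 0.744 and 1.11 fold in total RNA. Summed over the 10 genes the HP RNA level was 3142 ± 130.0 CPM with hnRNP U siRNA and 3547 ± 74.4 CPM with control siRNA (SD, n = 3 each). In total RNA the sum was 1819 ± 71.3 CPM with hnRNP U siRNA and 2132 ± 32.8 CPM with control siRNA. Library by library, the siRNA groups did not overlap for 8 genes in HP RNA (7 lower and 1 higher) and for 7 genes in total RNA (all lower). Of all genes tested 26.5% were lower and 31.8% higher without overlap in HP RNA, and 31.2% were lower and 30.8% higher in total RNA. SRSF2, with the lowest value of the 10 in both fractions, lay at the 17.9 percentile of the log2 fold changes of all genes in HP RNA and at the 17.0 percentile in total RNA.

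The largest decrease among the 10 genes was that of SRSF2. In HP RNA it had 476, 492 and 467 CPM with hnRNP U siRNA, against 611, 614 and 657 CPM with control siRNA. In total RNA SRSF2 had 273, 266 and 269 CPM with hnRNP U siRNA, against 364, 353 and 364 CPM with control siRNA. The groups did not overlap in either fraction. SRSF2 fell by 0.43 on the log2 scale in HP RNA (SE 0.05, adjusted p = 1.3e-06 from edgeR) and by 0.43 in total RNA (SE 0.04, adjusted p = 8.7e-08 from edgeR). SRSF2 (ENSG00000161547, chromosome 17, 76734115 to 76737333) shares 823 exonic bases with MFSD11 on the opposite strand, and the strand setting of the counts is not given in the sources used here.

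SRSF6 and SRSF5 are enhancer-binding SR proteins, each with a pair of RNA recognition motifs. SRSF6 had 349, 354 and 324 CPM in HP RNA with hnRNP U siRNA, against 434, 427 and 436 CPM with control siRNA. Its total RNA was at 218, 205 and 198 CPM with hnRNP U siRNA and at 276, 263 and 265 CPM with control siRNA. No library of one siRNA reached the range of the other. The log2 fold changes of SRSF6 were −0.37 (SE 0.05, adjusted p = 7.8e-06 from edgeR) in HP RNA and −0.37 (SE 0.04, adjusted p = 1.5e-06 from edgeR) in total RNA. SRSF6 shares 654 exonic bases with the gene model ENSG00000288000 on the same strand, which had 0 counts in all 12 libraries. Whether reads over shared bases were left out of the counts was not tested.

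SRSF5 had 154, 147 and 145 CPM in HP RNA with hnRNP U siRNA, against 165, 171 and 195 CPM with control siRNA, where the third library was the highest. In total RNA SRSF5 had 106, 93.0 and 96.0 CPM with hnRNP U siRNA, against 125, 120.1 and 127 CPM with control siRNA. SRSF5 was lower without overlap of the groups, with log2 fold changes of −0.29 (SE 0.06, adjusted p = 6.8e-04 from edgeR) in HP RNA and −0.34 (SE 0.05, adjusted p = 1.6e-05 from edgeR) in total RNA.

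SRSF1, the founding member of the family, promotes use of 5′ splice sites and shuttles between nucleus and cytoplasm. In HP RNA SRSF1 had 257, 255 and 219.9 CPM with hnRNP U siRNA, against 262, 266 and 261 CPM with control siRNA. In total RNA it had 149.0, 138 and 127 CPM with hnRNP U siRNA, against 159, 159 and 148.8 CPM with control siRNA. The third hnRNP U siRNA library stood below the other 2 in HP RNA, and in total RNA the highest hnRNP U siRNA library met the lowest control library. Taken within experiments 1, 2 and 3, SRSF1 changed by −0.10, −0.20 and −0.23 on the log2 scale in total RNA. Its log2 fold change was −0.14 (SE 0.06, adjusted p = 0.049 from edgeR) in HP RNA and −0.18 (SE 0.05, adjusted p = 0.0074 from edgeR) in total RNA. The HP value did not pass with DESeq2 (adjusted p = 0.062), nor without the third hnRNP U siRNA library or any 1 of the 3 control libraries of HP RNA. Without the third hnRNP U siRNA library of total RNA, the total RNA value did not pass either (adjusted p = 0.067 from edgeR). SRSF1 shares 1890 exonic bases with the gene model ENSG00000266086 on its own strand, which had 0 counts in all 12 libraries, and 440 with the gene model ENSG00000279069 on the opposite strand.

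SRSF3 and SRSF7 are closely related SR proteins that recruit the export receptor NXF1 to mRNAs. SRSF3 had 798, 793 and 734 CPM in HP RNA with hnRNP U siRNA, against 798, 809.9 and 832 CPM with control siRNA. SRSF3 in total RNA had 381, 365 and 349 CPM with hnRNP U siRNA, against 424, 416 and 417 CPM with control siRNA. The groups overlapped in HP RNA, whereas in total RNA SRSF3 was lower without overlap. Its log2 fold change in HP RNA was −0.10 (SE 0.05, adjusted p = 0.088 from edgeR), and it fell by 0.20 in total RNA (SE 0.04, adjusted p = 5.0e-04 from edgeR). With the experiment as a block, the HP value passed the test (adjusted p = 0.029 from edgeR).

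SRSF7 had 288, 287 and 269.8 CPM in HP RNA with hnRNP U siRNA, against 279, 282 and 285 CPM with control siRNA. In total RNA SRSF7 had 152, 144 and 139 CPM with hnRNP U siRNA, against 159.9, 150.1 and 153 CPM with control siRNA. The groups overlapped in both fractions. Within experiments 1, 2 and 3 SRSF7 changed by 0.04, 0.02 and −0.08 on the log2 scale in HP RNA, and by −0.07, −0.06 and −0.13 in total RNA. The log2 fold change of SRSF7 was −0.04 in HP RNA (95% confidence interval −0.14 to 0.07, adjusted p = 0.54 from edgeR) and −0.09 in total RNA (−0.18 to −0.00062, adjusted p = 0.079 from edgeR). With the experiment as a block, the total RNA value passed the test (adjusted p = 0.030 from edgeR).

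SRSF10 and SRSF11 are SR-like proteins. SRSF10 represses splicing when it is dephosphorylated, as after heat shock, and SRSF11 is a further nuclear arginine-serine-rich factor. In HP RNA SRSF10 had 198, 198 and 187 CPM with hnRNP U siRNA, against 244, 255 and 246 CPM with control siRNA. In total RNA it had 165, 157 and 151 CPM with hnRNP U siRNA, against 188, 181 and 186 CPM with control siRNA. SRSF10 was lower without overlap in both fractions, with log2 fold changes of −0.39 (SE 0.05, adjusted p = 4.7e-06 from edgeR) in HP RNA and −0.24 (SE 0.04, adjusted p = 1.6e-04 from edgeR) in total RNA. SRSF11 had 165, 188 and 171 CPM in HP RNA with hnRNP U siRNA, against 201, 209 and 201 CPM with control siRNA. Its total RNA was at 133, 135 and 129.8 CPM with hnRNP U siRNA and at 154, 152 and 144 CPM with control siRNA. SRSF11 too was lower without overlap, with log2 fold changes of −0.26 (SE 0.06, adjusted p = 8.0e-04 from edgeR) in HP RNA and −0.18 (SE 0.04, adjusted p = 0.0011 from edgeR) in total RNA.

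TRA2A and TRA2B are the human counterparts of the fly sex-determination factor Transformer-2 and bind GAA-rich exonic enhancers. In HP RNA TRA2A had 186, 189 and 174 CPM with hnRNP U siRNA, against 152, 151 and 155 CPM with control siRNA. In total RNA it had 108, 100.3 and 95.7 CPM with hnRNP U siRNA, against 96.7, 90.4 and 87.1 CPM with control siRNA. The groups did not overlap in HP RNA and overlapped in total RNA, where the third hnRNP U siRNA library was below the first control library. Within experiments 1, 2 and 3 TRA2A changed by 0.16, 0.15 and 0.14 on the log2 scale in total RNA. TRA2A rose by 0.22 on the log2 scale in HP RNA (SE 0.05, adjusted p = 0.0014 from edgeR) and by 0.14 in total RNA (SE 0.05, adjusted p = 0.021 from edgeR). Without the first hnRNP U siRNA library of total RNA, or the third control one, its total RNA value missed the threshold (adjusted p up to 0.12 from edgeR).

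TRA2B had 326, 334 and 303 CPM in HP RNA with hnRNP U siRNA, against 337, 344 and 359 CPM with control siRNA. In total RNA TRA2B had 210.4, 203 and 199.5 CPM with hnRNP U siRNA, against 223, 225 and 223 CPM with control siRNA. It was lower without overlap, with log2 fold changes of −0.15 (SE 0.05, adjusted p = 0.026 from edgeR) in HP RNA and −0.13 (SE 0.04, adjusted p = 0.0076 from edgeR) in total RNA. Its HP value missed the threshold without the first or the third hnRNP U siRNA library or the third control library of HP RNA (adjusted p up to 0.13 from edgeR). Its total RNA value missed it without the third hnRNP U siRNA library (adjusted p = 0.052 from edgeR).

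**Figure D1:**
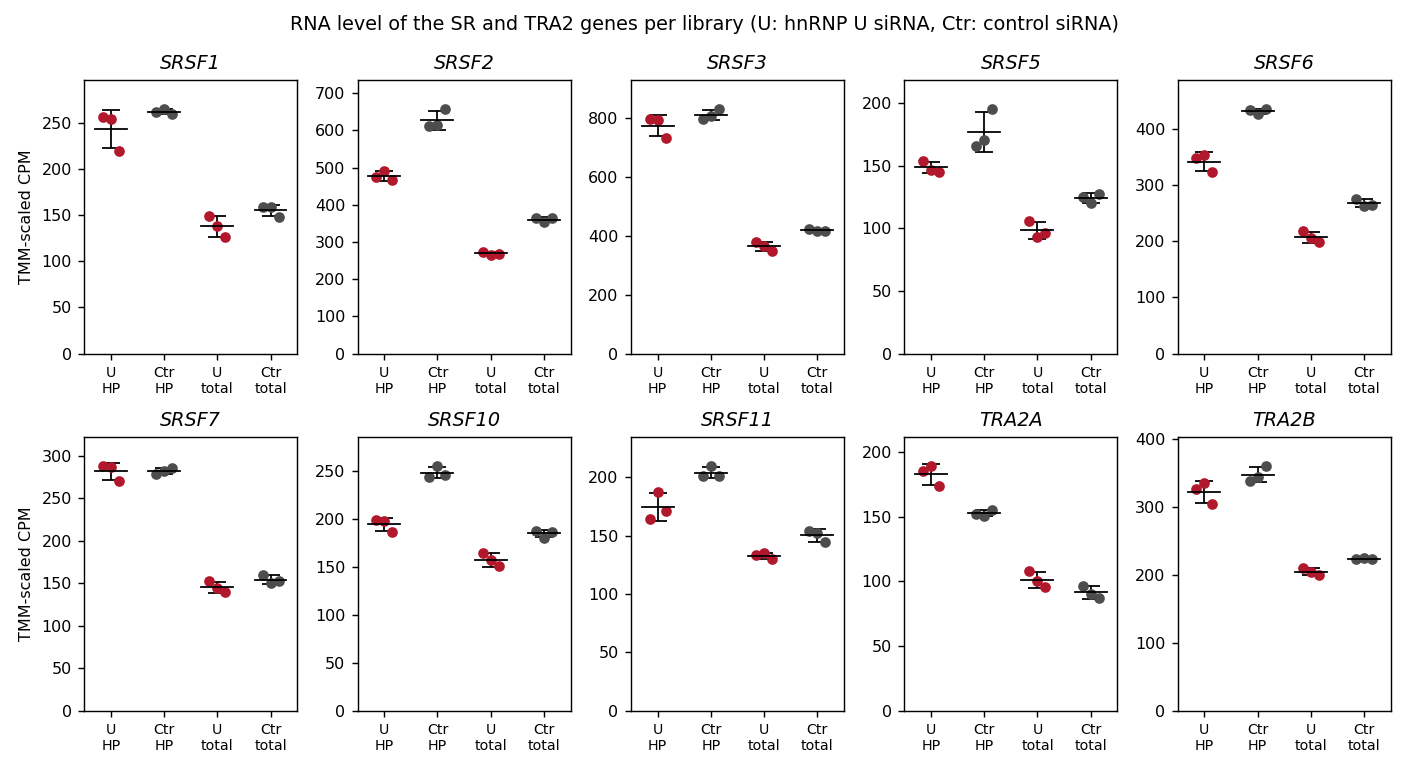
TMM-scaled CPM of the 10 genes in each library (points), with the mean and SD of 3 libraries (lines), for hnRNP U siRNA (U) and control siRNA (Ctr) in HP and total RNA. SRSF2 and SRSF6 are lower with hnRNP U siRNA in both fractions, TRA2A is higher in HP RNA, and every gene is higher in HP than in total RNA.

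Whether hnRNP U siRNA changed the distribution between heavy polysomes and total RNA was tested by the interaction of siRNA and fraction over the 12 libraries (HP/total). None of the 10 genes passed the test with edgeR's quasi-likelihood test (lowest adjusted p = 0.73) or with DESeq2, and 0 had an unadjusted p under 0.05. Of all genes tested 26, or 0.163%, passed. With the experiment as a block 78 genes passed, and with the culture (siRNA and experiment) as a block 140, and none of the 10 genes was among them. The differences ranged from −0.12 for SRSF10 (95% confidence interval −0.26 to 0.01) to 0.13 for SRSF3 (−0.0042 to 0.27), with a median of 0.05 against 0.04 for all genes.

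**Figure D2:**
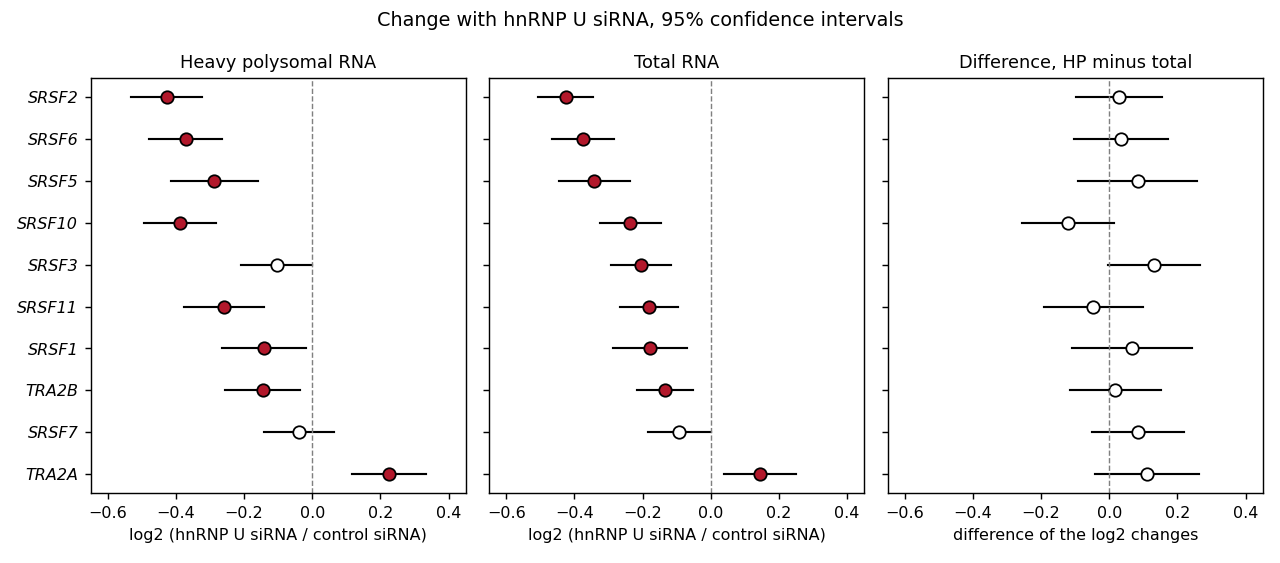
Log2 change with hnRNP U siRNA relative to control siRNA in HP RNA (left), total RNA (middle) and the difference between them, HP minus total (right), with 95% confidence intervals from edgeR over 3 libraries a group. Filled points passed an adjusted p of 0.05: 8 in HP RNA, 9 in total RNA and 0 in the difference.

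All 10 genes were higher in HP RNA than in total RNA under both siRNAs. With hnRNP U siRNA 34.4% of all genes tested were higher in HP RNA, and with control siRNA 33.1%. These ratios are relative to the other RNAs of each library, since the counts hold no external standard, and are not shares of an RNA that sit on polysomes. The median log2 ratio of the 10 genes was 0.75 with hnRNP U siRNA and 0.72 with control siRNA, against −0.02 for all genes in each case. Among the 12758 protein-coding genes tested the median was 0.07 in each case. Of these, 41.1% were higher in HP RNA with hnRNP U siRNA and 39.8% with control siRNA. In the lists described below, all 3 other SR genes tested were higher under both siRNAs. Of 11 other autoregulated RNA-binding genes 10 were higher with hnRNP U siRNA and 9 with control siRNA. For 34 SR-related genes these counts were 18 and 17. They were 7 and 7 for 13 kinase, phosphatase and transport genes, and 3 and 2 for 9 NMD genes.

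SRSF3 had the highest ratio, 1.06 (SE 0.05) with hnRNP U siRNA and 0.96 (SE 0.05) with control siRNA. Among protein-coding genes it lay at the 99.4 percentile with hnRNP U siRNA and at the 99.0 percentile with control siRNA. SRSF7, its close relative, came next with 0.93 (SE 0.05) and 0.87 (SE 0.05) with hnRNP U siRNA and control siRNA. SRSF2 (0.81 and 0.80), SRSF1 (0.80 and 0.75) and TRA2A (0.83 and 0.74) followed, each with hnRNP U siRNA and then control siRNA, and after them SRSF6 (0.70 and 0.69), TRA2B (0.63 and 0.63) and SRSF5 (0.57 and 0.51). The SR-like genes SRSF11 (0.37 and 0.44) and SRSF10 (0.28 and 0.43) had the lowest ratios. SRSF10 lay at the 65.7 percentile of protein-coding genes with hnRNP U siRNA and at the 77.4 percentile with control siRNA. The order of the genes was thus led by SRSF3 and SRSF7, with SRSF11 and SRSF10 last under both siRNAs.

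**Figure D3:**
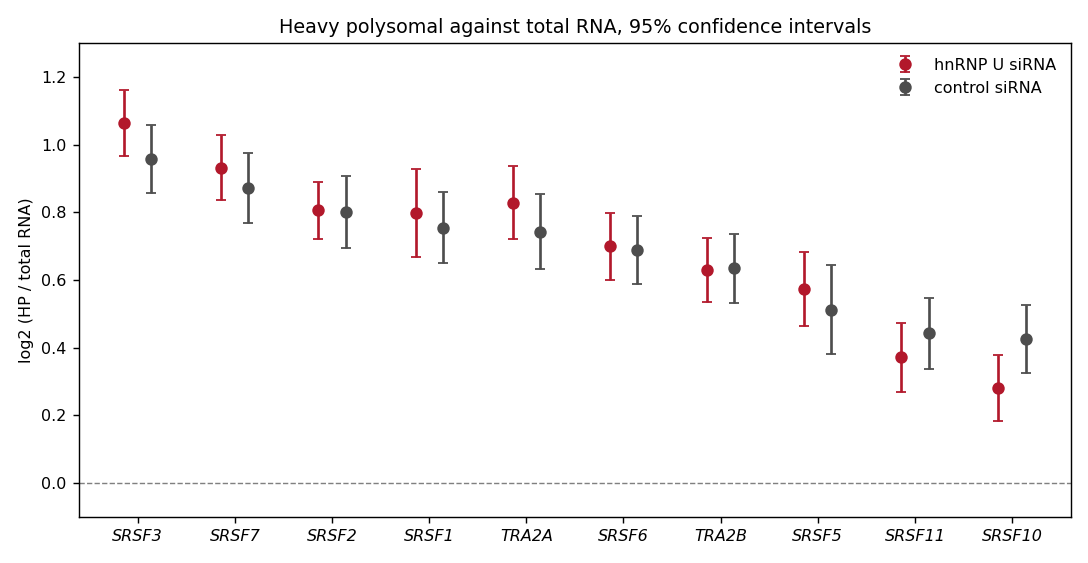
Log2 ratio of each gene between HP and total RNA with hnRNP U siRNA (red, left of each pair) and control siRNA (grey, right), with 95% confidence intervals over 3 libraries of each fraction. All intervals lie above 0, and SRSF3 has the highest ratio and SRSF10 the lowest under both siRNAs.

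Close relatives of the 10 genes within the SR family were followed too. Of the other 4 SR genes SRSF4, SRSF8 and SRSF9 passed the filter on low counts and SRSF12 did not. In both fractions 2 of these 3 rose and 0 fell, where 25.5% of all genes rose in HP RNA and 28.0% in total RNA. The counts of these 3 genes were the same with the experiment as a block. SRSF8, a relative of SRSF2 without introns in its coding sequence, had 118, 116 and 110.1 CPM in HP RNA with hnRNP U siRNA, against 72.4, 70.4 and 73.0 CPM with control siRNA. In total RNA SRSF8 had 91.0, 90.5 and 87.8 CPM with hnRNP U siRNA, against 60.2, 57.1 and 58.5 CPM with control siRNA. It rose by 0.64 on the log2 scale in HP RNA (SE 0.05, adjusted p = 2.5e-08 from edgeR) and by 0.61 in total RNA (SE 0.04, adjusted p = 3.2e-09 from edgeR). SRSF4, a relative of SRSF6, rose by 0.33 in HP RNA (SE 0.05, adjusted p = 6.3e-05 from edgeR) and by 0.29 in total RNA (SE 0.05, adjusted p = 6.9e-05 from edgeR). SRSF9, a relative of SRSF1, had log2 fold changes of −0.08 (HP RNA) and −0.03 (total RNA), and did not pass the test.

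Ratios of relatives were also taken inside each library, where scaling between libraries plays no part. The ratio of SRSF8 to SRSF2 counts in HP RNA was 0.240 ± 0.0070 with hnRNP U siRNA and 0.115 ± 0.0037 with control siRNA (SD, n = 3 each), 2.09-fold higher. In total RNA it was 0.334 ± 0.0069 with hnRNP U siRNA and 0.163 ± 0.0025 with control siRNA, 2.05-fold higher. The ratio of SRSF4 to SRSF6 was 1.62-fold higher in HP RNA and 1.59-fold higher in total RNA. Counts of TRA2A against TRA2B gave 0.569 ± 0.0036 with hnRNP U siRNA and 0.441 ± 0.0095 with control siRNA in HP RNA, 1.29-fold higher. In total RNA that ratio was 0.495 ± 0.016 with hnRNP U siRNA and 0.409 ± 0.023 with control siRNA, 1.21-fold higher. For SRSF7 against SRSF3 the ratio was 1.05-fold higher in HP RNA and 1.08-fold higher in total RNA, again without overlap. These 8 ratios each reached a two-sided p of 0.1 in the exact permutation test, the smallest that 3 against 3 libraries allow, and an adjusted p of 0.125 over the 10 ratios. The ratio of SRSF9 to SRSF1 overlapped between siRNAs, with an exact permutation p of 0.8 for HP RNA and 0.2 for total RNA.

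**Figure D4:**
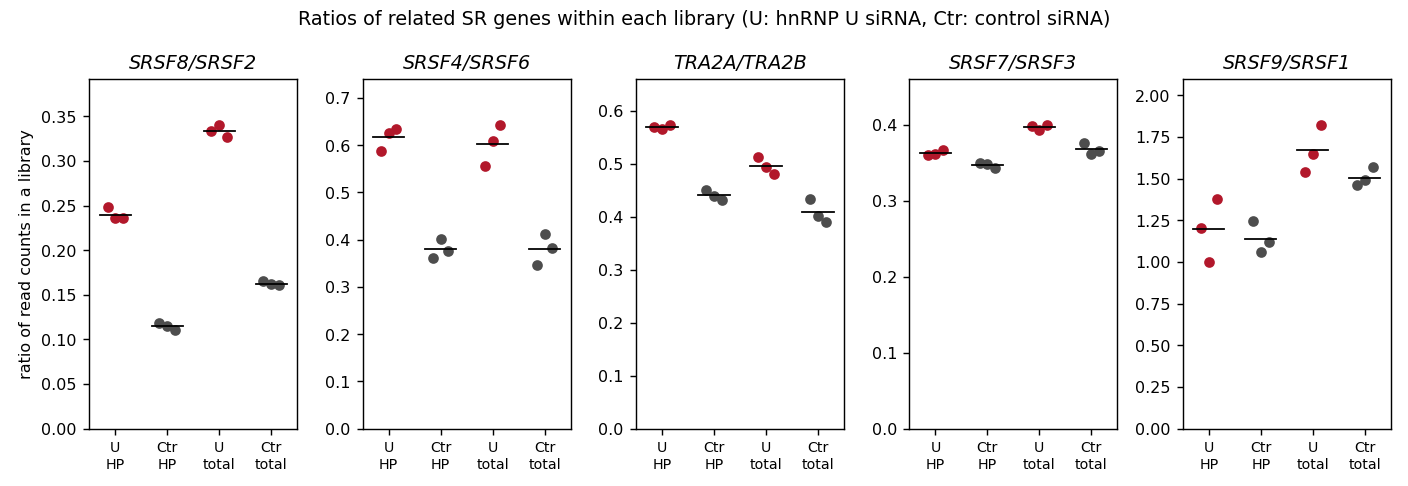
Ratio of the read counts of related genes within each library (points) and the mean of 3 libraries (line), for hnRNP U siRNA (U) and control siRNA (Ctr) in HP and total RNA. The ratios of SRSF8 to SRSF2, SRSF4 to SRSF6, TRA2A to TRA2B and SRSF7 to SRSF3 do not overlap between siRNAs in either fraction, and that of SRSF9 to SRSF1 does.

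The wider set of arginine-serine-rich proteins moved in both directions, as did all genes tested. Of 34 SR-related genes 10 rose and 14 fell in HP RNA, where 25.5% of all genes rose and 26.3% fell. In total RNA 8 rose and 13 fell, where 28.0% of all genes rose and 29.3% fell. The log2 medians of the list were −0.03 (HP RNA) and 0.03 (total RNA). With the experiment as a block 14 rose and 15 fell in HP RNA, and 12 rose and 14 fell in total RNA. U2AF1, the small subunit of the factor that recognises the 3′ splice site, rose by 1.17 in HP RNA and by 0.93 in total RNA. Its counts are uncertain, since hg38 holds an artifactual duplicate of U2AF1 that can take reads from it. SFSWAP (0.48 in HP RNA and 0.42 in total RNA), a regulator of alternative splicing, SCAF4 (0.39 and 0.25), which acts in transcription termination, and ZRSR2 (0.60 and 0.38), of the minor spliceosome, also rose. ARGLU1, a splicing coactivator rich in arginine and glutamate, fell by 1.05 in HP RNA and by 0.66 in total RNA. LUC7L3 (−0.46 in HP RNA and −0.34 in total RNA), a U1 snRNP-associated protein, SCAF11 (−0.30 and −0.14) and BCLAF1 (−0.30 and −0.24) fell as well. Each of these 8 genes passed an adjusted p of 0.05 from edgeR in both fractions.

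Of 13 tested genes for SR protein kinases, phosphatases and transport factors 4 rose and 6 fell in HP RNA. In total RNA 3 rose and 6 fell. Over all genes tested 25.5% rose and 26.3% fell in HP RNA, and 28.0% rose and 29.3% fell in total RNA. With the experiment as a block 4 of the 13 rose and 7 fell in HP RNA, and 4 rose and 6 fell in total RNA. SRPK1, the main cytoplasmic SR protein kinase, rose by 0.32 in HP RNA and by 0.39 in total RNA. CLK1, a nuclear SR protein kinase, rose by 0.55 in HP RNA (adjusted p = 1.1e-04 from edgeR), and its value in total RNA was 0.17 (adjusted p = 0.15 from edgeR, or 0.018 with the experiment as a block). The kinase gene PRPF4B fell by 0.76 in HP RNA and by 0.61 in total RNA. PPP1CB, a catalytic subunit of protein phosphatase 1, fell by 0.44 in HP RNA and by 0.53 in total RNA. TNPO3, the import receptor of phosphorylated SR proteins, fell by 0.24 in HP RNA and by 0.24 in total RNA. Of the kinase genes named, SRPK1 and CLK1 were thus higher in HP RNA and PRPF4B lower, and genes moved both ways over the whole table too.

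Genes of the NMD machinery, which removes poison-exon transcripts, were looked at next. Of the 9 analysed here 6 rose and 3 did not pass the test, in HP RNA and again in total RNA, with medians at 0.20 (HP RNA) and 0.19 (total RNA). Over all genes tested 25.5% rose and 26.3% fell in HP RNA, and 28.0% rose and 29.3% fell in total RNA. With the experiment as a block 6 of the 9 rose and 1 fell in HP RNA, and 6 rose and 0 fell in total RNA. UPF3B (0.68 in HP RNA and 0.67 in total RNA) and UPF3A (0.73 and 0.46), which bind the exon junction complex, rose. SMG8 (0.79 in HP RNA and 0.66 in total RNA) and SMG9 (0.21 and 0.21), regulators of the SMG1 kinase, rose too.

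Other RNA-binding protein genes known to regulate their own mRNAs were compared as well. Of the 11 analysed here 1 rose, 8 fell and 2 did not pass the test, in both fractions. Over all genes tested 25.5% rose and 26.3% fell in HP RNA, and 28.0% rose and 29.3% fell in total RNA. With the experiment as a block 1 of the 11 rose and 8 fell in each fraction. HNRNPDL fell by 0.86 in HP RNA and by 0.86 in total RNA, and HNRNPH1 by 0.59 in each. HNRNPD fell by 0.60 in HP RNA and by 0.64 in total RNA, and TIA1 by 0.68 in HP RNA and by 0.60 in total RNA. The one that rose was PTBP2 (0.48 in HP RNA and 0.34 in total RNA), the neuronal relative of PTBP1. The median of the 11 genes was −0.37 in HP RNA and −0.31 in total RNA, beside −0.20 and −0.19 for the 10 SR and TRA2 genes. Over all genes tested the medians were 0.0067 in HP RNA and 0.00047 in total RNA.

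**Figure D5:**
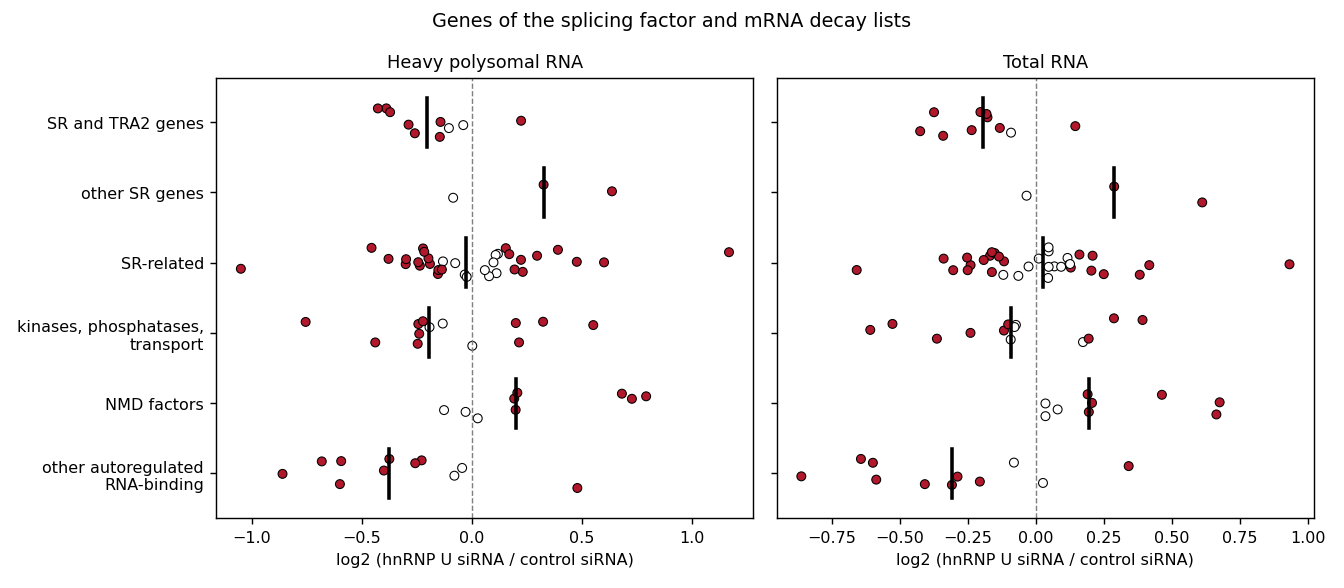
Log2 change with hnRNP U siRNA relative to control siRNA of each gene of 6 groups (points, vertical position within a row is arbitrary) and the median of each group (bar), in HP RNA (left) and total RNA (right). Filled points passed an adjusted p of 0.05 from edgeR. The 10 SR and TRA2 genes had medians at −0.20 (HP RNA) and −0.19 (total RNA), and the other autoregulated RNA-binding genes −0.37 and −0.31.

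Sequence features were also compared with the changes, as a description. The study concerns RNA G-quadruplexes (RG4), folds of guanine runs bound by hnRNP U. An RG4 motif, counted as 4 runs of at least 3 G with 1 to 7 bases between them, was present in an annotated transcript of 5 of the 10 genes (SRSF2, SRSF3, SRSF5, SRSF7 and TRA2B), against 44.6% of the protein-coding genes tested. In SRSF3 and TRA2B it lay in the 3′ UTR of the canonical transcript. The last stretch of G in the TRA2B motif was counted as a run, a G between runs, and a further run. Both motifs are shown with the guanine runs in capitals.
SRSF3, chr6:36604363-36604382, plus strand: GGGaggctaGGGcGGGtGGG
TRA2B, chr3:185916610-185916628, minus strand: GGGctGGGttgaGGGGGGG

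In SRSF5 and SRSF7 the motif lay in the 5′ UTR of another transcript, and in SRSF2 in a transcript with a retained intron. The HP/total differences of the 5 genes with a motif ranged from 0.02 to 0.13 with a median of 0.08, and those of the 5 without ranged from −0.12 to 0.11 with a median of 0.03. The ranges overlap, and none of the 10 values passed its own test. A motif is a match of letters, and folding was not measured here.

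The 6 genes with an exon that holds a stop codon had median log2 fold changes at −0.12 (HP RNA) and −0.16 (total RNA). The other 4, whose NMD transcripts had no exon that met both conditions above, had −0.34 in HP RNA and −0.29 in total RNA. TRA2A, the gene that rose, is among the 6, and the 4 all fell in both fractions. Of these 4, SRSF1 lost its call in HP RNA with DESeq2 and without some single libraries.

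The 3′ UTRs were also searched, on the strand of the mRNA, for the 7 bases that pair with the seed (bases 2 to 8) of the siRNAs listed in the methods. The match GTATGCT of hnRNP U siRNA 1 was in 1 of 10 genes (SRSF3), against 7.31% of the 12729 genes tested with an annotated 3′ UTR. The match TTGTAGT of hnRNP U siRNA 2 was in 6 (SRSF1, SRSF3, SRSF6, SRSF10, SRSF11 and TRA2B), against 13.1%, and CCCAAAT of the control siRNA in 1 (SRSF2), against 15.2%. The 3′ UTRs of the 10 genes are long, with a median of 2702 bases against 1319 over all those genes. Genes with the TTGTAGT match had median log2 fold changes at −0.20 (HP RNA) and −0.19 (total RNA), and the other 4 had −0.16 and −0.22. The part of seed matches in the decreases was not tested.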

How the data were processed

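Poly(A)-selected, directional libraries of total and HP RNA gave single-end reads of 75 bp, which the authors trimmed (Trim Galore, quality cutoff 30, reads under 18 nt dropped), aligned to hg38 with STAR and counted over GENCODE release 43. The submitters' processing notes also name CASAVA 1.8. The deposited values are raw counts per gene, with no normalization by the authors. The strand setting of the counts is not given in the sources used here, and the table has 0 rows of the ERCC spikes that the methods name.

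Counts of 62703 genes were filtered with filterByExpr (minimum count 10) to 15920 and scaled by TMM, and siRNA effects were fitted with edgeR 4.0.16 (glmQLFit and glmQLFTest, R 4.3.3) in HP RNA, in total RNA, in HP against total RNA with each siRNA, and as the interaction of both over 12 libraries. Adjusted p values are Benjamini-Hochberg values over all genes tested, with a threshold of 0.05. CPM are TMM-scaled over the 12 libraries, and RPKM divide them by merged exon length in GENCODE 44, which matched 62639 of the identifiers. With between 30305012 and 39761103 counts per library, the spread between libraries limits the precision. Alternatives were DESeq2 1.42.0, its size factors, upper-quartile factors, no filter, a minimum count of 50, a replicate block, all 12 libraries in 1 fit, and each library left out. The model was also run on simulated counts with known changes. These counts had the same dispersion for every gene and no effect of experiment, unlike the paired libraries here. The study gives 3 independent experiments for each condition, and libraries with the same number share the prefix of an experiment in their titles, so the numbers pair the libraries. As a check, deviations from the group means correlated with r between −0.016 and 0.134 in 18 pairs with the same number, above 0.1 in 4, and 14 of 18 comparisons gave the best correlation to the same number. The main fits have no block. Values with the experiment as a block stand beside the calls it changes among the 10 genes. For the further lists the counts of genes that rose or fell with hnRNP U siRNA are given with the block too. Their counts in HP against total RNA are from the fits without a block.

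The genes named are the 10 SR and TRA2 genes, HNRNPU, all other SR genes and, of each further list, at most 4 per direction by adjusted p in HP RNA. Genes and lists were chosen with earlier results of these data known, as were the tests. Some genes of the lists are not reported here, and the counts and medians of those lists leave them out. Exons, motifs and seed matches were read from GENCODE 44 and hg38.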

Additional observations from a re-analysis of the deposited data

Results flagged for a closer look

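Among the 26 genes for which the siRNA effect differed between HP and total RNA by edgeR's interaction test, 2 belong to the genes named here. ARGLU1, the SR-related gene, fell by 1.05 in HP RNA and by 0.66 in total RNA on the log2 scale, a difference of −0.36 (SE 0.05, edgeR quasi-likelihood test, adjusted p = 0.018). It had 57.5, 61.1 and 58.6 CPM in HP RNA with hnRNP U siRNA, against 123, 117 and 119 CPM with control siRNA, and 57.5, 54.1 and 58.5 CPM in total RNA with hnRNP U siRNA, against 91.1, 87.0 and 89.7 CPM with control siRNA. HNRNPU, the gene targeted, fell by 3.82 in HP RNA and by 2.70 in total RNA, a difference of −1.09 (SE 0.08, adjusted p = 2.3e-07 from edgeR). What lies behind these differences was not tested. CLK1, with a difference of 0.41, missed the threshold (adjusted p = 0.57 from edgeR) and passed it with the experiment as a block (0.041). None of the 10 SR and TRA2 genes passed this test.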

How the results depend on the processing

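No direction of a called value reversed under any alternative run, and the number of the 10 genes that passed the test stayed within 1.5 times. In HP RNA it was 8, or 7 with DESeq2, with its size factors, with upper-quartile factors and with all 12 libraries in 1 fit, and between 6 and 8 with 1 library left out. In total RNA it was 9, and between 7 and 10 with 1 library left out. In HP/total it was 0 and in HP against total RNA 10 throughout. SRSF1 in HP RNA lost its call in those 4 fits (adjusted p between 0.052 and 0.13 from edgeR or DESeq2) and without any of 4 libraries (up to 0.29). SRSF7 in total RNA gained a call without the first hnRNP U siRNA library (adjusted p = 0.041 from edgeR) or the second control library (0.047). Of all genes 26 passed in HP/total, against 49 with DESeq2, 61 with no filter on low counts and between 17 and 37 with 1 library left out. Upper-quartile factors put the median of all genes in HP against total RNA at −0.11 with each siRNA, against −0.02 with TMM. The highest level per length was 7.77 times the lowest in total RNA with control siRNA, or 7.90 times with canonical transcript lengths.

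With the experiment, which pairs the libraries, as a replicate block, 9 genes passed in HP RNA (SRSF3 gained, adjusted p = 0.029 from edgeR), 10 in total RNA (SRSF7 gained, 0.030), 0 in HP/total and 10 in HP against total RNA with each siRNA. The block changed no other call of the 10 genes. Of all genes it gave 78 in HP/total, or 140 with the culture as block. The spread over 3 libraries a group limits the smallest change that could be seen.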
